A study of Mus musculus with 22 samples.

Results

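The genes described here are the 3 D cyclins (Ccnd1, Ccnd2, Ccnd3), the 2 kinases they activate (Cdk4, Cdk6) and 5 inhibitors of cyclin-dependent kinases (Cdkn1a, Cdkn1b, Cdkn2a, Cdkn2c, Cdkn2d). They were chosen by symbol, and all 10 were found among the 44792 genes of the counts table. Of these, 9 passed the filter on low counts that left 18931 genes for testing, and Cdkn2a, with 0 to 10 reads per library, did not. RNA was sequenced from 10 libraries of mouse retinal cells on a C57BL/6 background. Müller cells, the main glia of the retina, were isolated by fluorescence sorting from mice carrying an Rlbp1-GFP reporter, so the sort marks cells in which the Rlbp1 reporter is active. The donors were young adults aged 2 to 3 months (2 libraries, called young below), mice of the same age given NMDA into the eye 2 days before collection (3 libraries, NMDA), and aged mice of 1.5 years (2 libraries, aged). NMDA is an agonist of glutamate receptors that injures retinal neurons. Retinal progenitor cells were collected from embryos at embryonic day 12.5 (3 libraries, RPC). DNA methylation was measured by reduced representation bisulfite sequencing (RRBS), which reads the methylated share of cytosines in CpG-rich fragments, in 3 libraries of each of the 4 groups. Young and aged RNA samples and all RRBS samples are described as biological replicates, while the NMDA and RPC RNA samples are called replicates only, so p-values measure the spread between these libraries.

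D cyclins rise when a cell receives growth signals, bind Cdk4 or Cdk6, and start the phosphorylation of the retinoblastoma protein that frees E2F transcription factors to switch on the genes of DNA replication. The INK4 inhibitors, which include p16 from Cdkn2a and the products of Cdkn2c and Cdkn2d, bind Cdk4 and Cdk6 themselves. The Cip/Kip inhibitors p21 (Cdkn1a) and p27 (Cdkn1b) instead bind cyclin-kinase complexes, with cyclin E or A and Cdk2 as a main target. Müller glia of the adult mouse are normally out of the cell cycle, while retinal progenitors divide.

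The RNA libraries held 10149390 to 36486072 counts. The 2 young libraries stood apart from the rest: they had 13913 and 14919 genes with at least 1 read, against 20920 to 23618 in the other 8, and their log expression correlated at Pearson r = 0.865 with each other, against 0.960 to 0.993 for other pairs within a group (across genes, which are not independent). Of their detected genes, 6.35% and 5.52% had under 10 reads, against 14.3 to 29.5% in the other 8. Where a gene named below had 0 reads in a young library, this is said beside its value. Limits set by 0 reads cover counting error only, and the young libraries could differ by more. Ccne1, for one, had 60 reads in young library 1 and 0 in young library 2. The summed level of 12 Müller glia markers was 52232 and 62189 CPM (reads of the gene per 1000000 counts of its library) in young cells, 18928 to 24843 in NMDA cells, 50046 and 50570 in aged cells and 2447 to 2494 in RPC. A list of 10 progenitor markers summed to 6901 to 7025 CPM in RPC and 761 to 1784 in the Müller libraries. RNA of other cells was present: 10 photoreceptor markers summed to 5365 to 13885 CPM in the Müller libraries, and the sum of 12 microglia and macrophage markers was 13.2 and 95.3 CPM in young cells and reached 328, 3423 and 708 after NMDA. In bulk samples, fewer cells of a type and less RNA per cell cannot be told apart.

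The promoters of 4 members are shown here because their CpG positions were measured by RRBS and because those of the 2 kinases, whose RNA moved differently across the groups, differ in a motif. RefSeq promoter sequences of GRCm38.p6 cover 250 bases before to 50 after a transcription start, and 8 of the 10 members had an entry, with 12 starts in all. The Cdk4 promoter (chr10:127063285-127063584, plus strand) and the Cdk6 promoter (chr5:3343643-3343942, plus strand) are printed 5′ to 3′ with each E-box CACGTG, the letters bound by Myc-family factors among others, in capitals.
Cdk4: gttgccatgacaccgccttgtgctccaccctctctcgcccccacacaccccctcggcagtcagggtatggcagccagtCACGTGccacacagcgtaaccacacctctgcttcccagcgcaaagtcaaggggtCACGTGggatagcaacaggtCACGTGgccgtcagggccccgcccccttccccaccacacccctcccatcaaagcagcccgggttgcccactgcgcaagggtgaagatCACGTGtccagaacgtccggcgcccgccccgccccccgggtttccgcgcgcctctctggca
Cdk6: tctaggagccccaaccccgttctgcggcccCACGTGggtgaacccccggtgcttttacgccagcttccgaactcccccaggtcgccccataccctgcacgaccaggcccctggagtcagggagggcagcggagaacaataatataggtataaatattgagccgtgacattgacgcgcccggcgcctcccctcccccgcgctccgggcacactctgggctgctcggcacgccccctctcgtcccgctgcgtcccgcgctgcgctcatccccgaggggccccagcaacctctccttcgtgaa
The Cdk4 promoter holds 4 matches, which begin 172, 118, 98 and 11 bases before the start, and the Cdk6 promoter holds 1, which begins 220 bases before it. Because CACGTG is its own reverse complement, a match counts for both strands. Of the 12 member promoters 3 hold a match, the third being the downstream start of Cdkn2c. At least 1 match was found in 7.15% of the 32817 mouse promoters of this length, and 4 or more were found in 8 of them (0.0244%). For Cdkn2c (chr4:109666707-109667006, minus strand) and the upstream start of Cdkn2a (chr4:89294570-89294869, minus strand), the CpGs with measured methylation are in capitals, 18 of the 33 CpGs of Cdkn2c and 9 of the 45 of Cdkn2a.
Cdkn2c: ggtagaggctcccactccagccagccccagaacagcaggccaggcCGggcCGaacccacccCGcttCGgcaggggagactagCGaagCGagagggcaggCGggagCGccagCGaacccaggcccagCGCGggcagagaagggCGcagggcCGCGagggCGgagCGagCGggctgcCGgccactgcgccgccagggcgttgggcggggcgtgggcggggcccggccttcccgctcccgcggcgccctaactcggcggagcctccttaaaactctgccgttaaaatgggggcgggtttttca
Cdkn2a: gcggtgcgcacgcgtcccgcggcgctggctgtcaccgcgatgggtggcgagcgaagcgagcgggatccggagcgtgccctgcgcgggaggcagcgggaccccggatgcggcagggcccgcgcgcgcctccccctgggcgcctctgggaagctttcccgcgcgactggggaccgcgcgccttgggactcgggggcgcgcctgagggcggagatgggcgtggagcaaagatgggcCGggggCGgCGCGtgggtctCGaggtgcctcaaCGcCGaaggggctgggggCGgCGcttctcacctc
Among 3 other motifs searched on both strands, the GC box GGGCGG was found in 9 of the 12 member promoters (35.6% of all promoters), CCAAT in 5 of 12 (37.4%), and the E2F letters TTTCCCGC or TTTGGCGC in 1 of 12, the upstream start of Cdkn2a (1.56%). These matches describe letters in this window and are not evidence that a factor binds.

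At 2 days after NMDA, the D cyclins did not move together. Ccnd1 and Ccnd2 rose, Ccnd3 fell, both kinases rose, and none of the tested inhibitors passed the test. In all, 5 of the 9 tested members were called at an adjusted p under 0.05 by edgeR's quasi-likelihood test, where 44.9% of all genes tested were called (30.6% higher, 14.3% lower). Each of the 5 called members had NMDA libraries that did not overlap the young ones, and the share of all genes that did so was not counted. In aged cells 2 of 9 were called (27% of all genes, 21.1% higher and 5.85% lower), Ccnd1 and Cdk6, both higher. In RPC 6 of 9 were called (60.8% of all genes, 35.9% higher and 24.9% lower), with Ccnd1, Ccnd2, Cdk4 and Cdkn2d higher and Ccnd3 and Cdkn1b lower. The median log2 change of the 9 members was 0.93 in NMDA, 0.26 in aged and -0.09 in RPC cells, beside 0.26, 0.13 and 0.30 over all genes. All 3 comparisons share the same 2 young libraries, and each count moved with them or with the aged libraries. In NMDA cells 8 members were called without young library 1, where 57.5% of all genes were. In aged cells 5 were called without young library 2 (51.6% of all genes) and 1 without aged library 1 or 2 (16.4% and 16.5%). In these fits the members' counts moved in the same direction as the share over all genes. With a replicate block (a term for the library number) they did not, with 6 members called in NMDA and 35.5% of all genes. Upper-quartile scaling moved the median of all genes in NMDA from 0.26 to 0.04, and the calls over all genes from 5795 higher and 2702 lower to 5094 and 3825. In aged cells it moved them from 3997 and 1108 to 3527 and 1848.

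**Figure D1:**
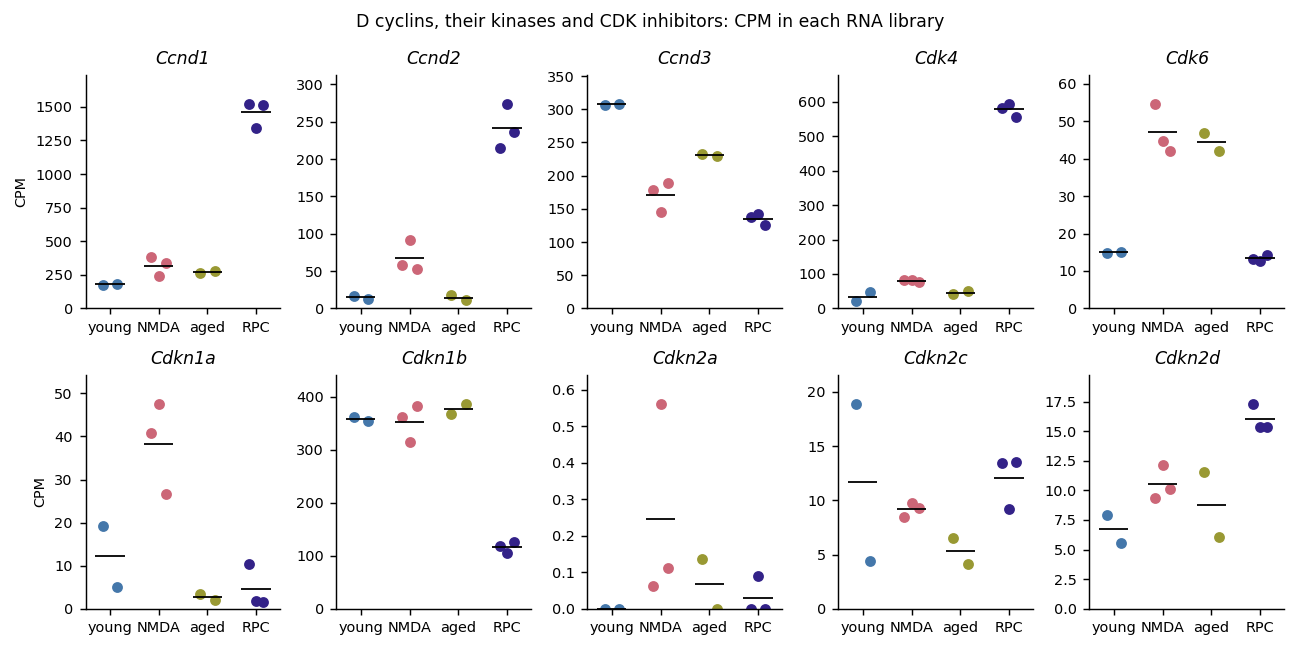
CPM of each of the 10 genes (y axis, from 0, its own scale in each panel) in each RNA library (points), by group (x axis), with the group mean as a line. Ccnd1, Ccnd2 and Cdk4 are highest in the 3 RPC libraries, Ccnd3 is highest in the 2 young libraries, Cdk6 is high in NMDA and aged cells, and Cdkn1a is highest in the 3 NMDA libraries.

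Cyclin D1 (Ccnd1; chr7:144929931-144939831, GRCm38) is the cyclin most often linked to growth signals, and its loss in mice leaves a small retina. Young libraries held 178 and 184 CPM of it, NMDA libraries 380, 240 and 339, aged libraries 264 and 276, and RPC libraries 1523, 1343 and 1515. No library of another group was as low as the young ones, and every RPC library was above all Müller libraries. The log2 change (± SE) against young cells was 0.93 ± 0.18 in NMDA (adjusted p = 0.0038, edgeR), 0.77 ± 0.20 in aged (adjusted p = 0.02) and 2.89 ± 0.20 in RPC (adjusted p = 4.6e-06), a 7.39-fold difference. NMDA and aged cells did not differ by this test (log2 0.16 ± 0.18, adjusted p = 0.59), and their libraries overlapped. The call in aged cells was lost without aged library 1 (adjusted p = 0.071) or 2 (0.089), and with upper-quartile scaling (log2 0.59, adjusted p = 0.063).

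Cyclin D2 (Ccnd2; chr6:127125162-127152188) changed by the largest factor of the 3 D cyclins after NMDA. Its levels were 17.0 and 12.3 CPM in young, 57.7, 91.2 and 52.6 in NMDA, 18.4 and 10.7 in aged, and 215, 274 and 236 in RPC. Young and aged libraries overlapped, NMDA libraries lay above both, and RPC libraries lay above all. Against young cells Ccnd2 was 4.90-fold higher in NMDA (log2 2.29 ± 0.33, adjusted p = 8.5e-04, edgeR) and 14.9-fold higher in RPC (log2 3.90 ± 0.35, adjusted p = 2.3e-05), while the aged value was log2 0.17 ± 0.33 (adjusted p = 0.78). NMDA cells also exceeded aged cells (log2 2.12 ± 0.32, adjusted p = 0.0029) and stayed below RPC (RPC against NMDA, log2 1.60 ± 0.27, adjusted p = 9.3e-04). The NMDA library with the highest Ccnd2, library 2, was also the one with the highest microglia marker sum (3423 CPM). Without that library the change was log2 2.00 (adjusted p = 0.0015).

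Cyclin D3 (Ccnd3; chr17:47505051-47599689), the D cyclin often found in cells that have left the cycle, ran the other way. Young libraries had 307 and 308 CPM, aged 233 and 230, NMDA 178, 146 and 189, and RPC 137, 142 and 125. The 4 groups did not overlap, in that order. The fall was 1.67-fold in NMDA (log2 -0.74 ± 0.12, adjusted p = 0.0014, edgeR) and 2.50-fold in RPC (log2 -1.32 ± 0.12, adjusted p = 2.1e-05), and RPC were also below NMDA cells (log2 -0.58 ± 0.11, adjusted p = 0.0016). The aged value, log2 -0.22 ± 0.13, did not pass (adjusted p = 0.26), although NMDA cells were below aged ones (log2 -0.52 ± 0.12, adjusted p = 0.017).

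The balance between D cyclins within a library does not depend on scaling between libraries. On the scale of log2(CPM + 0.5), Ccnd1 minus Ccnd3 was -0.77 ± 0.03 in young cells (mean ± SD, n = 2), 0.22 ± 0.06 in aged (n = 2), 0.88 ± 0.19 in NMDA (n = 3) and 3.43 ± 0.18 in RPC (n = 3). The 4 groups did not overlap. Ccnd2 minus Ccnd3 was -4.36 ± 0.32 in young, -4.0 ± 0.52 in aged, -1.38 ± 0.62 in NMDA and 0.83 ± 0.16 in RPC, and here young and aged libraries overlapped. Ccnd1 minus Ccnd2 was 3.60 ± 0.35 in young and 4.22 ± 0.58 in aged cells, and was lower, 2.26 ± 0.75 and 2.60 ± 0.27, in NMDA cells and RPC, with no library of the latter pair reaching the former. These ratios are a description of how the balance differs between groups. They do not rank the genes by amount, since reads were not scaled by transcript length.

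**Figure D2:**
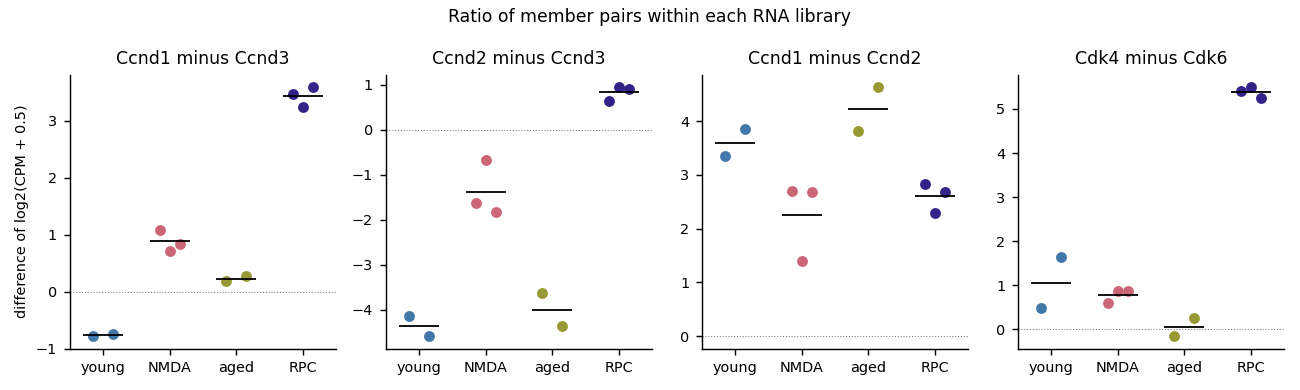
Difference of log2(CPM + 0.5) between the 2 genes named above each panel (y axis) in each RNA library (points), by group (x axis), with the group mean as a line and 0 dotted. Ccnd1 minus Ccnd3 separates all 4 groups, and Cdk4 minus Cdk6 is above 5 in RPC and below 2 in every Müller library.

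The 2 kinases differed between groups in unlike ways. Cdk4 (chr10:127063535-127067288) had 21.0 and 48.1 CPM in young, 83.2, 82.3 and 76.8 in NMDA, 42.0 and 50.5 in aged, and 582, 594 and 557 in RPC. The 2 young libraries were far apart, and aged cells overlapped them. Cdk4 rose 2.55-fold in NMDA (log2 1.35 ± 0.28, adjusted p = 0.005, edgeR) and 15.4-fold in RPC (log2 3.95 ± 0.32, adjusted p = 1.1e-05). The NMDA change was log2 2.04 without young library 2 and 0.88 without young library 1, and with the 2 groups fitted alone it was 1.33 with an adjusted p of 0.051. In aged cells it was log2 0.63 ± 0.29 (adjusted p = 0.16).

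Cdk6 (chr5:3341004-3531008), which shares the D cyclins with Cdk4, had 14.9 and 15.2 CPM in young, 54.6, 44.6 and 42.0 in NMDA, 46.9 and 42.1 in aged, and 13.2, 12.6 and 14.2 in RPC. The libraries formed a high pair of groups (NMDA and aged) and a low pair (young and RPC). The change against young cells was log2 1.75 ± 0.17 in NMDA (adjusted p = 1.1e-04, edgeR) and 1.76 ± 0.18 in aged cells (adjusted p = 2.3e-04), both a 3.37 to 3.38-fold rise. NMDA and aged cells differed by log2 -0.000825 ± 0.16 (adjusted p = 1). RPC and young cells differed by log2 -0.30 ± 0.16, which did not pass (adjusted p = 0.14), whereas RPC were 4.15-fold below NMDA cells (log2 -2.05 ± 0.15, adjusted p = 4.6e-06) and 4.16-fold below aged cells (log2 -2.06 ± 0.16, adjusted p = 7.1e-06). With aged and young libraries fitted alone, the aged call was lost (log2 1.74, adjusted p = 0.061). Cdk4 minus Cdk6 on the log2 scale was 1.06 ± 0.81 in young, 0.78 ± 0.15 in NMDA, 0.05 ± 0.30 in aged and 5.38 ± 0.13 in RPC. RPC thus stood apart from all Müller groups in this ratio, and young and NMDA libraries overlapped.

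**Figure D3:**
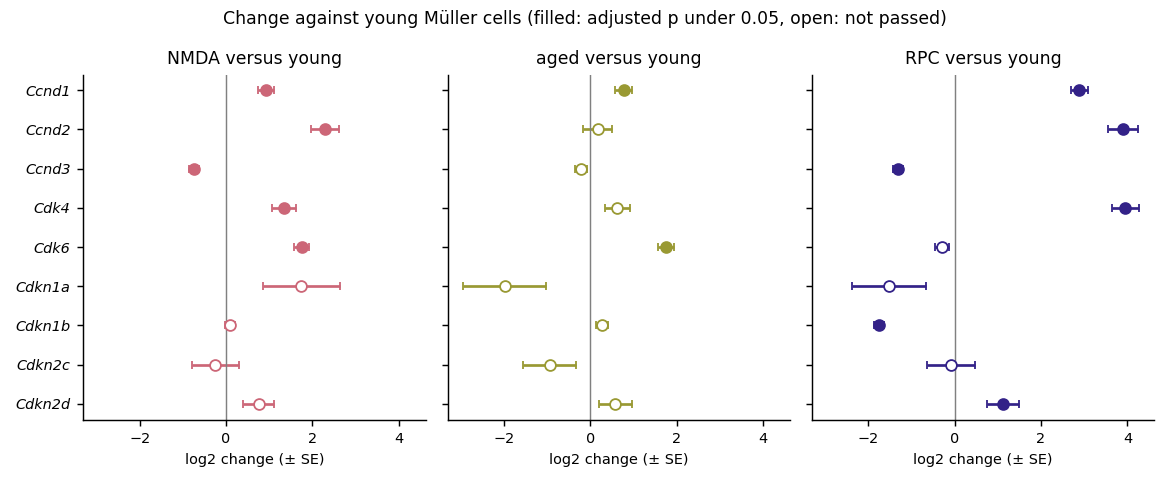
Log2 change ± SE against young cells (x axis) from edgeR for the 9 tested genes (rows), in NMDA, aged and RPC cells (panels); filled points passed an adjusted p of 0.05 and open points did not. Ccnd1 is higher in all 3 panels, Ccnd3 is lower in NMDA and RPC, and Cdk6 is higher in NMDA and aged cells.

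Cdkn1a (chr17:29090979-29100722) encodes p21, an inhibitor that p53 switches on. Its levels were 19.3 and 5.12 CPM in young, 40.9, 47.5 and 26.6 in NMDA, 3.32 and 2.14 in aged, and 10.4, 1.81 and 1.49 in RPC. All NMDA libraries were above all others, but the 2 young libraries were far apart, and the change against them did not pass (log2 1.74 ± 0.90, adjusted p = 0.15, edgeR). It passed without young library 1 (log2 3.04, adjusted p = 0.036). In young library 1, with the higher Cdkn1a, the sum of 10 immediate early and dissociation genes was 8753 CPM, against 3796 in young library 2 and 2834 to 3170 in NMDA cells. The part of these genes in the result was not tested. Against RPC, NMDA cells were 9.63-fold higher (RPC against NMDA, log2 -3.27 ± 0.83, adjusted p = 0.0086; 57.7% of all genes called, 25.8% higher and 31.9% lower, and 7 of 9 members). Against aged cells they were 13.2-fold higher (log2 3.73 ± 0.99, adjusted p = 0.031; 20.3% of all genes called, 10.5% higher and 9.8% lower, and 3 of 9 members). The latter call was lost when any 1 NMDA or aged library was left out, with adjusted p-values of 0.065, 0.076 and 0.054 without NMDA libraries 1, 2 and 3, and of 0.15 and 0.21 without aged libraries 1 and 2.

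Cdkn1b (chr6:134920401-134925525) encodes p27, an inhibitor typical of resting cells. Young libraries had 363 and 354 CPM, NMDA 362, 315 and 383, aged 368 and 386, and RPC 118, 105 and 125. The 3 Müller groups lay close together or overlapped, and RPC lay below them. RPC were 3.37-fold lower than young cells (log2 -1.75 ± 0.12, adjusted p = 4.5e-06, edgeR) and 3.58-fold lower than NMDA cells (log2 -1.84 ± 0.11, adjusted p = 1.7e-06). The NMDA value against young cells was log2 0.09 ± 0.12 (adjusted p = 0.59), and -0.13 with upper-quartile scaling (adjusted p = 0.43).

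The INK4 genes were low. Cdkn2a (chr4:89274473-89294619), whose locus encodes the p16 and Arf tumour suppressors, had 0 reads in both young libraries, 1, 10 and 2 in NMDA, 5 and 0 in aged, and 0, 1 and 0 in RPC. The counts do not separate p16 from Arf, and the Cdkn2a starts were not assigned to either. Most NMDA reads came from 1 library, library 2, the one with the most microglia marker RNA. Pooled over libraries, NMDA cells had 0.252 CPM (95% exact Poisson interval 0.134 to 0.430, counting error only), while 0 reads in young cells allow up to 0.118 CPM (3 reads over the group). The exact 95% upper limit for young cells is 0.146 CPM, above the lower limit for NMDA cells. Overlap of these intervals is not a test, and a difference between the groups was not tested. Aged cells, at 0.0717 CPM, were below the limit set by the young libraries. Its neighbour Cdkn2b, the further INK4 gene (p15), had 0 and 16 reads in young, 102, 76 and 93 in NMDA, 126 and 125 in aged and 4, 6 and 1 in RPC libraries, and did not pass in NMDA against young cells (adjusted p = 0.098, edgeR).

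Cdkn2c (chr4:109660876-109666756) encodes p18 and Cdkn2d (chr9:21288459-21291421) p19, both INK4 inhibitors. Cdkn2c had 18.9 and 4.43 CPM in young, 8.51, 9.76 and 9.29 in NMDA, 6.55 and 4.15 in aged, and 13.4, 9.22 and 13.5 in RPC. Again the 2 young libraries were far apart and spanned the NMDA libraries. No comparison called it. Against young cells its log2 values were -0.25 ± 0.55 in NMDA (adjusted p = 0.74, edgeR), -0.95 ± 0.61 in aged (0.30) and -0.09 ± 0.55 in RPC (0.91), and each turned positive without young library 1, at 1.19, 0.49 and 1.34. Cdkn2d had 7.89 and 5.52 CPM in young, 9.33, 12.2 and 10.1 in NMDA, 11.6 and 6.02 in aged, and 17.3, 15.4 and 15.4 in RPC. RPC libraries lay above all others, and the 2.17-fold difference from young cells passed (log2 1.12 ± 0.36, adjusted p = 0.026, edgeR). That call was lost without young library 2 (adjusted p = 0.061) and without RPC library 1 (0.075), 2 (0.05) or 3 (0.055).

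Between RPC and aged cells 6 of the 9 members were called (55.4% of all genes, 26.3% higher and 29% lower): Ccnd1 (log2 2.12 ± 0.19), Ccnd2 (3.73 ± 0.35) and Cdk4 (3.32 ± 0.30) were higher in RPC, and Ccnd3 (-1.10 ± 0.12), Cdk6 and Cdkn1b (-2.02 ± 0.12) were lower. Between RPC and NMDA cells the 7 called members were these 6 with Cdkn1a. Their largest log2 values were those of Cdk4 (2.60 ± 0.25, adjusted p = 2.9e-05, edgeR) and Cdkn1a.

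The genes that respond to the D cyclin kinases were read from lists of the G1 to S pathway. All 16 E2F target genes of S phase, which make the DNA replication machinery and nucleotides, were higher in RPC (35.9% of all genes). In NMDA 7 were higher and 0 lower (30.6% and 14.3%), and in aged cells 2 were higher and 1 lower (21.1% and 5.85%). In RPC, Rrm1 (ribonucleotide reductase) went from 46.5 to 470 CPM (log2 3.20 ± 0.13, adjusted p = 2.9e-07, edgeR), Tyms (thymidylate synthase) from 14.0 to 130 CPM (log2 3.08 ± 0.14) and Mcm5 (a subunit of the replication helicase) from 7.28 to 244 CPM (log2 4.93 ± 0.26). In NMDA cells the same Rrm1 was at 56.7 CPM, a log2 change of 0.39 ± 0.12 (adjusted p = 0.023). Mcm7, another helicase subunit, had 1.13 CPM in young cells, 20.7 in NMDA, 18.1 in aged and 61.6 in RPC. Its 2 young libraries had 0 and 23 reads. It was called higher in NMDA (log2 4.44 ± 0.92, adjusted p = 0.0048) and in aged cells (log2 4.33 ± 0.94, adjusted p = 0.01). Mcm2 was the 1 member of this list called lower in aged cells (log2 -1.10 ± 0.19, adjusted p = 0.0037). Rrm2, the other reductase subunit, had 0 reads in young cells and 33 to 126 in the NMDA libraries. This was 38.3-fold over the limit that 0 reads allow (counting error only). Without young library 1 the aged counts were 3 higher and 4 lower, and without young library 2 they were 3 and 3.

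**Figure D4:**
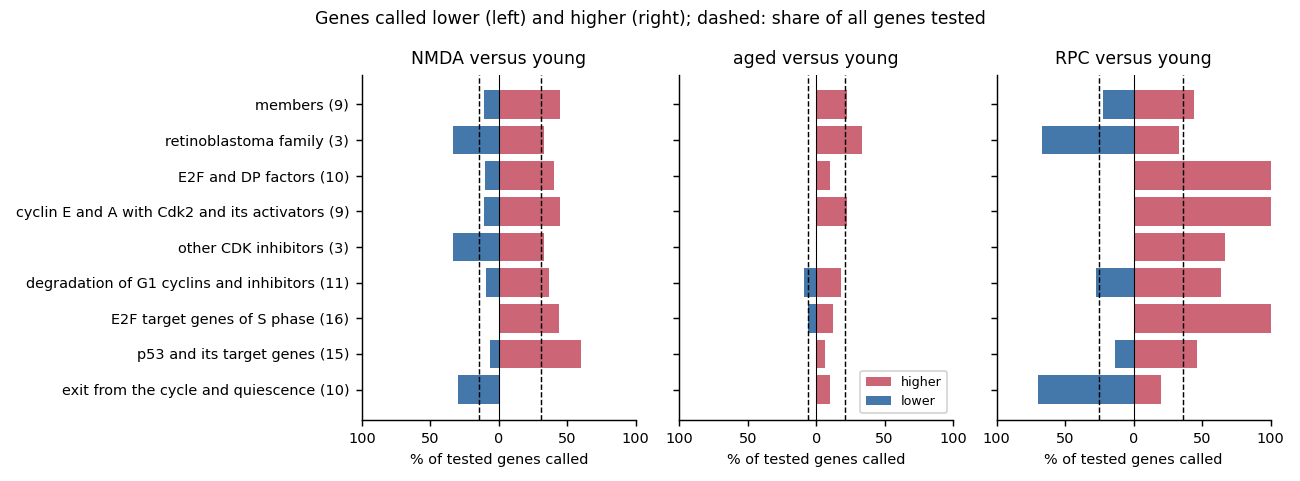
Share of the tested genes of each list (rows, number tested in parentheses) called higher (right, red) or lower (left, blue) against young cells at an adjusted p under 0.05 (x axis, percent), with the share over all genes as dashed lines. In RPC all E2F factors, all cyclin E, cyclin A and Cdk2 genes and all E2F targets are called higher, and in aged cells no list has more than 2 genes called higher.

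The retinoblastoma family, the substrates of the D cyclin kinases, changed gene by gene. Rb1 rose from 108 CPM in young cells to 224 in NMDA (log2 1.16 ± 0.15, adjusted p = 5.1e-04, edgeR) and 408 in aged cells (log2 2.11 ± 0.17, adjusted p = 4.6e-05), and fell to 39.3 in RPC (log2 -1.58 ± 0.15). Rbl2, which holds E2F targets off in resting cells, fell in NMDA (log2 -0.49 ± 0.15, adjusted p = 0.029) and in RPC (log2 -2.38 ± 0.16). The call of Rbl2 in NMDA was lost without young library 1, without NMDA library 1 or 2, and with NMDA and young libraries fitted alone. It was also lost with no filter on low counts and with the replicate block. Rbl1, itself an E2F target, rose in RPC (log2 3.04 ± 0.52) and did not pass in NMDA or aged cells. All 10 E2F and DP factors were higher in RPC (35.9% of all genes). In NMDA 4 were higher and 1 lower (30.6% and 14.3% of all genes), and in aged cells 1 was higher (21.1%). In NMDA these included E2f5 (log2 1.10 ± 0.19) and E2f4 (0.88 ± 0.20), which act mainly as repressors, and Tfdp2, a DP partner, fell (-0.42 ± 0.15, adjusted p = 0.048). That call of Tfdp2 was lost when any 1 NMDA library was left out. It was also lost with no filter, with the replicate block and with NMDA and young libraries fitted alone. E2f5 was also the gene called in aged cells (log2 1.17 ± 0.20). In RPC E2f3 rose from 27.3 to 135 CPM (log2 2.18 ± 0.13) and E2f5 from 10.1 to 62.2 CPM. E2f7, with 0 reads in young cells, was 839-fold over the limit that 0 reads allow (counting error only).

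Downstream of the D cyclins, the 9 genes of cyclin E, cyclin A, Cdk2 and their activators were all higher in RPC (35.9% of all genes). Cdk2 went from 18.4 to 93.4 CPM (log2 2.22 ± 0.17), Ccna2 from 7.26 to 332 CPM (log2 5.35 ± 0.43) and Ccne2 from 3 pooled reads to 2147, a ratio of 490 (95% interval 167 to 2378, counting error only). In NMDA cells 4 of the 9 were higher and 1 lower, beside 30.6% and 14.3% of all genes. Cdc25a, the phosphatase that activates Cdk2, rose (log2 1.54 ± 0.33, adjusted p = 0.0055, edgeR), as did Ccnh (0.60 ± 0.17), and Cdk7, the kinase that pairs with Ccnh, fell (-0.72 ± 0.16). Cdc25a (log2 1.82 ± 0.35) and Ccnh (0.68 ± 0.18) were the 2 genes called in aged cells, where 21.1% of all genes were called higher. Cdk2 itself was at 18.4 CPM in young and 18.2 in NMDA cells.

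Among 3 other inhibitors, Cdkn1c (p57) fell from 34.0 CPM in young to 10.8 in NMDA cells (log2 -1.57 ± 0.47, adjusted p = 0.024, edgeR). Its young libraries were far apart, at 55.1 and 13.01 CPM, the lower of them close to the 9.54 to 12.2 of NMDA cells. The NMDA call was lost without young library 1 and without NMDA library 2 or 3. It was also lost with the replicate block and with NMDA and young libraries fitted alone. Cdkn1c was at 94.7 CPM in RPC (log2 1.33 ± 0.49, adjusted p = 0.041, edgeR). Cdkn3, a phosphatase that acts on cyclin-dependent kinases, had 0 reads in young cells. In RPC it was 110-fold over the limit that 0 reads allow (counting error only). Of 11 genes that degrade G1 cyclins and inhibitors, 4 were higher and 1 lower in NMDA (30.6% and 14.3% of all genes). In aged cells 2 were higher and 1 lower (21.1% and 5.85%), and in RPC 7 were higher and 3 lower (35.9% and 24.9%). The NMDA and aged counts were near the shares over all genes. Fbxw7, which marks cyclin E for destruction, rose from 13.9 CPM to 51.8 in NMDA (log2 2.01 ± 0.16, adjusted p = 4.2e-05) and 44.2 in aged cells (log2 1.86 ± 0.17, adjusted p = 1.1e-04). Ambra1, the ubiquitin ligase adaptor that marks D cyclins themselves, fell from 168 to 94.0 CPM in NMDA (log2 -0.73 ± 0.11, adjusted p = 0.0012) and to 101 in aged cells (log2 -0.55 ± 0.12, adjusted p = 0.012), the latter call being lost without aged library 1 or 2. Skp1a, a subunit shared by several of these ligases, rose in NMDA (log2 0.73 ± 0.25). In RPC Skp2, which marks p27, went from 14.2 to 150 CPM (log2 3.26 ± 0.31), and Fzr1 rose (log2 1.05 ± 0.12). Cks1b, a partner of Skp2 with 0 reads in young cells, was 421-fold over the limit that 0 reads allow (counting error only).

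Of 15 genes of p53 and its targets, 9 were higher and 1 lower in NMDA (30.6% and 14.3% of all genes). In aged cells 1 was higher (21.1%), and in RPC 7 were higher and 2 lower (35.9% and 24.9%). Trp53 rose in NMDA (log2 1.18 ± 0.13, adjusted p = 2.1e-04, edgeR) and in RPC (1.95 ± 0.13). Gadd45a, a stress gene that p53 can switch on, went from 6.44 CPM in young to 41.6 in NMDA (log2 2.82 ± 0.38) and 120 in RPC (log2 4.11 ± 0.41), and Bax, which promotes cell death, rose in NMDA (log2 1.66 ± 0.25). Sesn1 fell in RPC (log2 -1.42 ± 0.13), and Trp53inp1 was the gene called in aged cells (log2 0.68 ± 0.22, adjusted p = 0.048). The call of Trp53inp1 was lost without aged library 1 or 2 and with RLE or upper-quartile scaling, while without young library 1 and 2 the aged counts of this list were 2 and 4 higher and 1 and 3 lower. In NMDA cells 5 genes, not 9, were called higher without NMDA library 1, and 6 with upper-quartile scaling.

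Of 10 genes tied to leaving the cycle and quiescence, 0 were higher and 3 lower in NMDA (30.6% and 14.3% of all genes). In aged cells 1 was higher (21.1%), and in RPC 2 were higher and 7 lower (35.9% and 24.9%). Gas1, a membrane protein of arrested cells, fell from 319 to 35.8 CPM in NMDA (log2 -3.04 ± 0.29, adjusted p = 1e-04, edgeR), Foxo1 fell (log2 -0.69 ± 0.16), and Prox1, a homeobox factor of retinal neurons and glia, fell (log2 -0.31 ± 0.09, adjusted p = 0.017). Foxo1 was higher in aged cells (log2 0.56 ± 0.17, adjusted p = 0.043), a call lost without aged library 1 or 2 and with RLE or upper-quartile scaling. Without young library 1 and 2, the aged cells had 2 and 3 genes of this list higher. In RPC Prox1 (log2 -1.58 ± 0.09), Foxo1 (-2.85 ± 0.16) and Tob1, an antiproliferative factor (-2.61 ± 0.23), all fell. Without young library 2 the NMDA counts were 2 higher and 6 lower.

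The aged counts of the other lists also moved when a young library was left out, as did the share of all genes called. Without young library 1 and 2 respectively, the E2F and DP factors had 2 and 3 genes called higher and 0 and 2 lower, and the cyclin E, cyclin A and Cdk2 genes had 4 and 3 higher and 0 lower. The degradation genes had 3 higher in both cases and 3 and 2 lower. In NMDA cells the degradation genes called lower went from 1 to 2 and 3. In RPC the cyclin E, cyclin A and Cdk2 genes called higher went from 9 to 6 without RPC library 1 or 3, and the degradation genes called lower from 3 to 1 without young library 1 or any 1 RPC library. The other inhibitors and the quiescence genes called higher in RPC each went from 2 to 1 without any 1 RPC library. With NMDA and young libraries fitted alone, 28.8% of all genes were called. In that fit 2 of the E2F and DP factors, 1 of the cyclin E, cyclin A and Cdk2 genes and 3 of the E2F targets were called higher. Upper-quartile scaling left 2 of the cyclin E, cyclin A and Cdk2 genes higher in NMDA cells (47.1% of all genes called). With aged and young libraries fitted alone, 0 genes were called in any list except the retinoblastoma family, where 1 was. That fit called 2.05% of all genes.

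Over the 10 RNA libraries, the genes whose log2(CPM + 0.5) followed Ccnd1 most closely, of 11128 with a mean of at least 8 CPM, were Mettl16 (Pearson r = 0.997), Nvl (0.994) and Rbfox2 (0.992). For Ccnd3 they were Hmgn3 (0.991), Ubald1 (0.990) and Wdr25 (0.986), and for Cdkn1a they were Selk (0.949), Ppp1r9b (0.945) and Cuta (0.929). The libraries fall into 4 groups, so these values describe likeness of pattern and carry no test.

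RRBS measured methylation next to the members at 743808 autosomal positions covered by at least 10 reads in all 12 libraries. The window of 1000 bases on each side of a gene's start held at least 5 such positions for 8 members, and had 0 positions for Ccnd3 and Cdkn1a. Both have a second RefSeq start inside the gene that was measured: around it, 26 positions of Ccnd3 had 3.30 to 5.60% in young and 0 to 1.59% in the other libraries, and 48 positions of Cdkn1a had 1.99 to 3.34% in young and 0.203 to 3.08% in the others. For Ccnd1 and Ccnd2, whose strand the annotation table did not give, the end with more measured positions was taken as the start. Every one of the 8 start windows had between 0 and 7.75% methylated reads in each of the 12 libraries, on 274 to 17306 reads per window and library. The members' starts were therefore little methylated in all 4 groups, in young cells and in RPC alike.

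Within this low range, all NMDA and aged libraries lay below all young ones in each of the 8 windows, whereas RPC overlapped young libraries in 4 (Ccnd1, Ccnd2, Cdk4 and Cdkn2c). How many of all start windows were separated in this way was not counted. In NMDA and in aged cells 1 of the 8 start windows was called (edgeR, adjusted p under 0.05 and at least 5 percentage points), against 3.34% and 4.71% of the 10087 start windows tested. In RPC 0 of 8 were called (4.27% of all). Without the minimum difference 2 had an adjusted p under 0.05 in RPC by edgeR, and the share of all windows at that threshold was not counted. The called window was that of Cdkn2d, with 7.75, 4.73 and 4.33% in young, 0.342, 0.477 and 0.798% in NMDA, and 0.454, 0.879 and 0.0710% in aged libraries (differences of -5.06 and -5.14 points). With a minimum of 20 reads these were -4.74 and -4.72 points and were no longer called. The other 7 windows were lower by 2.52 to 3.53 points in NMDA and by 2.76 to 3.96 points in aged cells. The median over all start windows was -2.45 points in NMDA, -2.86 in aged and -1.98 in RPC. The median position of the whole data had 3.47 to 4.82% in young libraries and 0 to 2.08% in the other 9, so the members' values moved with a difference of the young libraries seen across the genome, whose part was not tested.

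In the printed promoters, the 18 measured CpGs of Cdkn2c averaged 0.747 to 3.42% in young libraries and 0 to 2.24% in the other groups, and the 9 of Cdkn2a averaged 2.05 to 10.05% and 0.182 to 3.79%. In the Cdk4 promoter 11 of 22 CpGs were measured, with means of 3.08 to 5.83% in young libraries and 0.235 to 3.02% in the others. The Cdk6 promoter lies 2889 bases inside the annotated span, outside the start window used in the test. Around its start, 110 positions had 2.78 to 3.34% in young and 0.0851 to 1.28% in the other libraries. Averaged over their measured CpGs, both kinase promoters were thus little methylated in RPC and in Müller cells. The single position of Cdk4 with the largest difference, chr10:127063496, had a mean of 21.4% in young and 5.48% in NMDA cells.

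Outside the start windows Ccnd1 and Cdk6 differed. The rest of the gene, its annotated span with 1000 bases beyond each end and without the start window, could be tested for 8 members. NMDA and aged cells had 0 of 8 called by edgeR, against 21.7% and 8.28% of 7923 windows. When no minimum difference was asked, 5 and 6 had an adjusted p under 0.05 by edgeR, all lower than in young cells. The share of all windows at that threshold was not counted. The median over all such windows was 3.04 points in NMDA, -1.25 in aged and 3.03 in RPC. In RPC 1 of 8 was called, where 34.2% of windows were. It was Ccnd1, with 47.1, 14.98 and 14.9% methylated reads in RPC against 7.53, 9.08 and 6.24% in young libraries (18.0 points higher, adjusted p = 0.011). Without RPC library 1, whose pooled level stands apart, the difference was 7.33 points (adjusted p = 0.016). The window level pools reads, so it also depends on which positions hold the reads, and this part was not tested. Over the Ccnd1 stretch described below, averaged by position, the RPC libraries were alike, at 92.7, 90.7 and 91.4%. Cdk6 was 4.98 points higher in RPC (adjusted p = 0.0058, edgeR), just under the minimum of 5. It was called without young library 1 or 2 or RPC library 1 or 3. Of its 138 positions outside the start window, 110 surround the RefSeq start inside the gene. Those 110 held 0.0851 to 3.34% methylated reads in each library, so the window value is mostly that of a start.

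The largest differences lay in a few short stretches that held positions at which RPC and young cells were over 50 points apart. The stretches were chosen after the values were seen and are a description with no test; their CpGs lie close together and share reads. In Ccnd1, 8 positions at chr7:144933898-144934422, inside the gene and outside the start window, averaged 92.7, 90.7 and 91.4% in RPC, 34.9, 45.5 and 37.8% in young, 53.1, 51.8 and 56.4% in NMDA, and 40.5, 44.8 and 30.1% in aged libraries. RPC were far above all Müller libraries, and NMDA libraries lay above young and aged ones. Of these positions, chr7:144933898 had the largest difference, with a mean of 87.5% in RPC and 8.83% in young cells.

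In Cdk6, 6 positions at chr5:3433146-3433289 averaged 92.4, 91.9 and 97.7% in RPC, 5.30, 4.92 and 2.75% in young, 5.22, 9.81 and 21.2% in NMDA, and 0.726, 4.02 and 2.46% in aged libraries. The position chr5:3433166 had 96.7% in RPC and 1.53% in young cells. A further 8 positions at chr5:3491204-3491376 averaged 90.3, 86.3 and 90.3% in RPC, 9.28, 13.3 and 8.44% in young, 24.0, 14.5 and 19.2% in NMDA, and 4.53, 4.08 and 7.14% in aged libraries. Both stretches lay deep in the gene, and neither overlapped in level between RPC and Müller cells. Cdk6 RNA was low in RPC and in young cells alike, while these stretches were highly methylated in RPC and not in young cells. The third stretch of Cdk6, at chr5:3407756-3407917, held 1 position past 50 points and averaged 71.5 ± 5.36% in young cells and 81.7 ± 2.49% in RPC (mean ± SD, n = 3). Whether these positions are exonic or intronic was not analysed here.

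**Figure D5:**
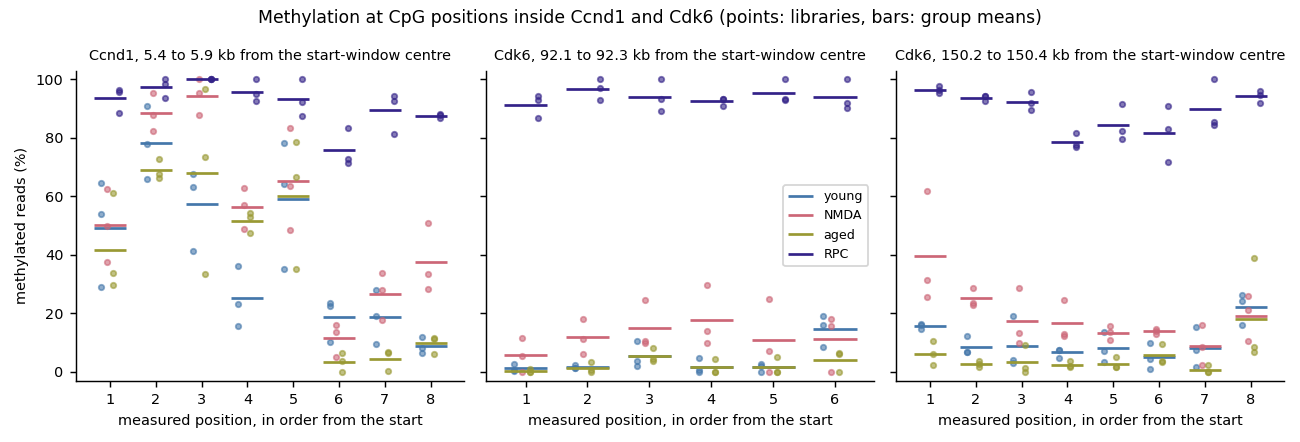
Methylated reads (y axis, percent) at each measured CpG position (x axis, in order from the gene's start) of 1 stretch in Ccnd1 and 2 in Cdk6; points are libraries and bars are group means of 3. The RPC libraries average 86.3 to 97.7% over these stretches, and in the 2 stretches of Cdk6 no Müller library averages above 24.0%.

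The other members showed no such stretch, but Cdk4 and Cdkn2c had 0 measured positions outside the start window, so none could be seen there. In the rest of the gene, which for Cdkn1a is the 48 positions around its second start, Ccnd2, Cdkn1a, Cdkn1b, Cdkn2a and Cdkn2d averaged 0.956 to 2.51% in RPC and 2.81 to 4.92% in young cells. Ccnd3, where 26 of the 47 positions surround the second start, was intermediate, with 24.6, 21.2 and 20.6% in RPC, 7.59, 17.4 and 14.4% in young, 19.3, 11.9 and 13.6% in NMDA, and 9.40, 7.87 and 5.0% in aged libraries. The RPC difference of 8.99 points did not pass (adjusted p = 0.051), and it turned to -4.21 points with a minimum of 20 reads.

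Reads of some members could be shared with overlapping genes. In the annotation, Ccnd3 overlaps Gm41590 by 7217 bases and Bysl by 359, Cdk6 overlaps Gm29868 by 19218 and Gm36470 by 2556, Ccnd2 overlaps 9330179D12Rik by 2800, Ccnd1 overlaps LTO1 by 818, and Cdk4 overlaps Tspan31 by 2. The 5 inhibitors overlap no annotated gene. Since the strand setting of the counts is not given in the sources used here, reads from these shared bases cannot be assigned.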

How the data were processed

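The authors deposited a table of read counts per gene for the 10 RNA libraries and, for 12 RRBS libraries, the coverage and the percent of methylated and unmethylated reads at each cytosine, per the file headers. The submitters' processing notes name HISAT2 2.0.4, Trim Galore 0.4.3, Bismark 0.16.3, methylKit 1.4.0 and the builds mm10 and GRCm38; the counting tool and its strand setting are not given in the sources used here. Libraries were grouped by their labels.

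From the deposited counts, all 10 libraries entered 1 edgeR 4.0.16 quasi-likelihood fit (R 4.3.3) with TMM scaling and edgeR's filter on low counts, with Benjamini-Hochberg adjustment over 18931 genes. CPM values were computed from library totals without TMM. For RRBS, methylated and unmethylated reads were recovered from the deposited percent and coverage, summed per window and tested by edgeR, with windows of at least 5 positions on autosomes. Coverage at the shared positions had a library median of 53 to 110 reads, strands being kept apart. Intervals and limits cover counting error only. No genome was used, so exons and introns were not assigned.

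The members and lists were chosen with earlier results of these data known. All members were named; from each list, in each comparison with young cells, up to 3 called genes with the smallest adjusted p and a mean of at least 5 CPM in the higher group were named, and for Ccnd1, Ccnd3 and Cdkn1a the 3 genes most alike in pattern. Within a member's window, the position with the largest difference was named. One gene that this rule names is not reported here. Rrm2, Cdkn2b and the stretches were picked after their values were seen. Alternatives were DESeq2 1.42.0, scaling by RLE or by upper quartiles, testing all genes or those above 5 CPM, 2 groups fitted alone, a replicate block, each library left out, and for RRBS limma 3.58.1, 20 reads, windows of 500 bases, no minimum difference and removal of the highest coverage. The fits were also run on simulated data, whose outcome is not given here and on which no result above rests. The RNA simulation used a shared mean profile and a common spread, so it did not mimic the unlike young libraries. The RRBS simulation was revised after its first outcome was seen.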

Additional observations from a re-analysis of the deposited data

How the results depend on the processing

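Of the alternatives for the members' log2 changes, 602 kept direction and side of the threshold, 11 passed it, 19 lost it and 16 changed sign. The within-library ratios moved less than their spread in all 72 alternatives. Members called in aged cells went from 2 (27% of all genes) to 1 with upper-quartile scaling (28.4%). They went to 0 with the 2 groups fitted alone, where 2.05% of all genes were called. Leaving out 1 library gave 5 to 8 members called in NMDA, 1 to 5 in aged and 5 to 7 in RPC against young cells, 7 to 7 in RPC against NMDA, 6 to 6 in RPC against aged and 1 to 2 in NMDA against aged. The share of all genes called also moved in these fits, so the ranges do not describe the members alone. In RPC against NMDA that share was 48.3 to 52.6%, beside 57.7% with all libraries. Upper-quartile scaling turned Cdkn1b in NMDA to -0.13 and Ccnd2 in aged cells to -0.00889. With a filter of 5 CPM, Cdk6 in NMDA against aged was 0.00128. Over the fits that left out 1 library, Cdkn2c ranged from -0.94 to 1.19 in NMDA, -1.64 to 0.49 in aged and -0.79 to 1.34 in RPC, and Ccnd2 in aged cells from -0.28 to 0.52. Against aged cells, Cdk6 in NMDA ranged from -0.11 to 0.085, Cdkn2d in NMDA from -0.22 to 0.73 and Cdkn1a in RPC from -1.06 to 0.88. The cause of these changes was not tested.

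Same-numbered libraries did not deviate together (correlations of -0.056 to 0.083 for RNA and -0.155 to 0.088 for RRBS), so the numbers were not taken as pairs. With the replicate block, 6, 2 and 5 members were called in NMDA, aged and RPC against young cells (35.5%, 18% and 52.3% of all genes). The block called 7 in RPC against NMDA (50%), 6 in RPC against aged (46.7%) and 2 in NMDA against aged (11.9%). Cdkn2c in RPC was then 0.0469 and Cdk6 in NMDA against aged 0.00992. For RRBS the block gave 1, 1 and 0 start windows and 0, 0 and 1 rest-of-gene windows.

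Without a minimum difference, 8, 8 and 2 start windows and 5, 6 and 5 rest-of-gene windows were called in NMDA, aged and RPC. The share of all windows called without that minimum was not counted, and the shares given above hold only with it. With at least 20 reads, 0 start windows were called in NMDA and 0 in aged cells, and windows of 500 bases gave 2 in aged cells. limma called 2 rest-of-gene windows in RPC. Leaving out 1 library gave 0 to 1 start windows in NMDA, 0 to 1 in aged and 0 to 0 in RPC, and 0 to 0, 0 to 1 and 1 to 3 rest-of-gene windows. Ccnd3 outside its start turned to -3.17 points in NMDA and -4.21 in RPC with 20 reads, and in NMDA ranged from -1.02 to 3.90 when 1 library was left out. Ccnd1 in NMDA ranged from -1.16 to 0.256 and Cdkn1a in RPC from -0.713 to 0.117. Cdkn2a, with at most 10 reads in a library, was too low for a test.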
